A study of Arabidopsis thaliana with 8 samples.

Results

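The 87 transcripts described here had a lower signal at 12.5 mM than at 1 mM CaCl2 in each of 4 lines of Arabidopsis thaliana, out of 22810 probe sets on the Affymetrix ATH1 array. RNA came from whole plants on sterile sand fed with 0.5-strength Long Ashton nutrient solution, in a growth room at 22 °C under 10 hour days. There were 2 laboratory lines, called calcicole and calcifuge, and 2 wild ecotypes, 1 of high and 1 of low soil pH, named here the high-pH and low-pH wild lines. Each was grown at both doses, with a single array for each, so that 8 arrays were measured. The labels name the lines by habit or soil only, do not give their genotype or age, and do not say whether plants were pooled. A calcicole is a plant of lime-rich soil and a calcifuge is one that avoids it. CaCl2 supplies chloride together with calcium, so both ions differed between the doses and their parts in any difference cannot be told apart.

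Members were chosen from the measured values. A probe set, the group of short probes that reports 1 transcript, entered where its mean signal over the 8 arrays was 20 or more and where log2(signal + 16) at 12.5 mM minus 1 mM was -0.5 or less in each line, a drop of at least 1.41-fold on that scale. Of 15555 probe sets with a mean signal of 20 or more, 96 met this rule, which is 0.617% of those tested, and 44 met the mirror-image rule for a rise, which is 0.283%. Leaving out 9 by name, among them GRX480, TET8, EXPA8, CYP71B23 and CYP71B29, gave the 87 members. Of these 33 name 1 gene, 3 are assigned to several genes and 51 are unnamed here. All 87 were tested in the line comparisons.

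Calcium acts in plant cells as a second messenger. A touch, a wound, a pathogen or a change in the medium raises it in the cytosol for a short time, and EF-hand proteins such as calmodulin and its relatives bind it and pass the signal to kinases and other targets. Most of the calcium of a plant lies outside the cytosol, in the wall and the vacuole, and many transcripts of defence and stress respond to the cytosolic signal.

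Because the dose difference chose the members, it is given as a description with no test. In whole plants fewer cells of a type and less RNA per cell cannot be told apart. The median change in log2(signal + 16) over the 87 members was -1.001 for the lab calcicole, -0.81 for the lab calcifuge, -1.04 for the high-pH wild line and -1.01 for the low-pH wild line. Over all tested probe sets the medians were -0.02, 0.05, 0.01 and -0.03 in the same order. The number of members at -1 or less was 44, 28, 45 and 45. Only 6 of the 87 were at -1 or less in all 4 lines, and 13 were above -1 in every line. The gap between a member's strongest and weakest line had a median of 0.78 and ran from 0.15 to 2.77.

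The line with the weakest change was the lab calcifuge for 32 members, the wild lines of high and low soil pH for 20 each, and the lab calcicole for 15. The strongest change was in the high-pH wild line for 33 members, the low-pH wild line for 20, the lab calcicole for 19 and the lab calcifuge for 15. Across the 87 members, which are not independent replicates, the changes of the wild lines correlated at 0.33 (Pearson) and 0.38 (Spearman). Those of the lab lines correlated at 0.06 and 0.01, and the range over the 6 pairs of lines was -0.12 to 0.33 (Pearson). Each change is the difference of 1 array from another, and the selection cuts off weak changes in every line.

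**Figure D1:**
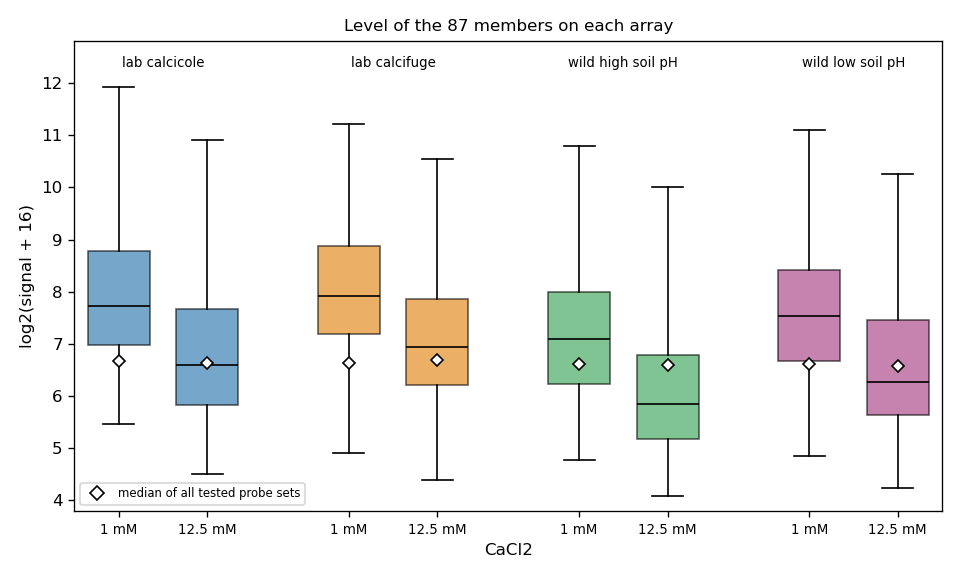
Level of the 87 members on each of the 8 arrays, as log2(signal + 16), with 1 pair of boxes per line and CaCl2 dose (mM) along the horizontal axis. Boxes span the quartiles with the median as a line, whiskers reach the lowest and highest member, and diamonds mark the median of all 15555 tested probe sets; the members' median lies between 7.10 and 7.92 at 1 mM and between 5.84 and 6.94 at 12.5 mM.

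The mean signal of the members over the 8 arrays had a median of 148 and ran from 20.5 to 1773, with 32 of them under 100. At 1 mM the median level of the 87 on the log2(signal + 16) scale was 7.72 for the lab calcicole, 7.92 for the lab calcifuge, 7.10 for the high-pH wild line and 7.53 for the low-pH wild line. At 12.5 mM it was 6.59, 6.94, 5.84 and 6.26 in that order, so the high-pH wild line had the lowest median at both doses and the lab calcifuge the highest. The median of all tested probe sets stayed between 6.58 and 6.70 on the 8 arrays. The highest array at 1 mM was the lab calcicole for 36 members and the lab calcifuge for 35, and at 12.5 mM it was the lab calcifuge for 46. Of all 15555 tested probe sets the same arrays were highest for 4859, 3282 and 4674 in that order. Adding 16 before the log understates the change of a dim transcript.

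For 34 members all 4 arrays at 12.5 mM lay below all 4 at 1 mM, which was so for 1.45% of tested probe sets. The rule chose members for a drop between these same arrays, so a higher share among them was built in and is no test. The 34 include 16 of the 33 members naming 1 gene. In the others at least 1 array at 12.5 mM was above at least 1 array at 1 mM.

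**Figure D2:**
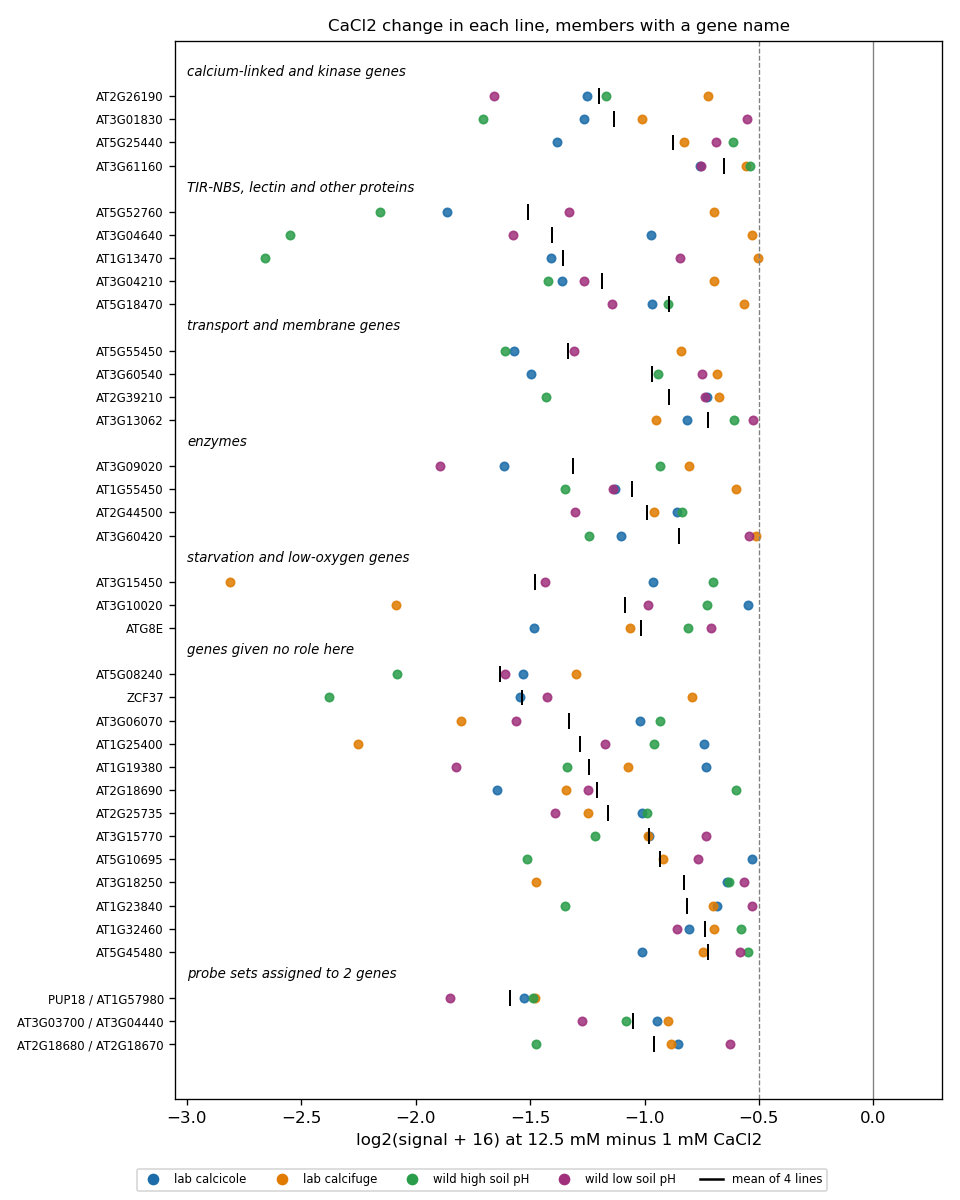
Change in log2(signal + 16), 12.5 mM minus 1 mM CaCl2, of the 33 members naming 1 gene and the 3 assigned to several, with a point for each line and a black bar for the mean of the 4 lines. Rows are grouped by known or inferred protein type, and the dashed line is the -0.5 threshold that every point had to reach. AT3G15450, AT3G10020, AT1G25400, AT3G06070, AT3G18250 and AT3G13062 have their lowest point in the lab calcifuge.

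Calcium-linked and kinase genes made up 4 of the named members. AT3G01830 encodes a calmodulin-like EF-hand protein, a calcium sensor. Its signal at 1 and 12.5 mM was 47.0 against 10.2 in the lab calcicole, 56.3 against 19.9 in the lab calcifuge, 39.3 against 0.936 in the high-pH wild line, and 27.5 against 13.7 in the low-pH wild line. All arrays at 12.5 mM were below all arrays at 1 mM, with a mean change of -1.13 ± 0.48 (SD over 4 lines). AT2G26190 encodes an IQ-motif protein of a calmodulin-binding family, and its signals were 300.1 and 117, 312 and 183, 190.4 and 75.8, and 383 and 110.5 in the same order of lines. These dose groups did not overlap either (-1.20 ± 0.38).

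The other members of that set are kinases. AT3G61160, a shaggy-like protein kinase gene, had the evenest change of the 33, with signals of 60.0 to 98.5 at 1 mM and of 36.3 to 51.9 at 12.5 mM (-0.65 ± 0.12). AT5G25440, of the protein kinase superfamily, ranged at 1 mM from 12.7 in the high-pH wild line to 115 in the lab calcifuge, and its dose groups overlapped (-0.88 ± 0.35).

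A mixed set of 5 named members encodes an immune receptor-type protein, a lectin-type protein and 3 proteins of other families. All 5 had their weakest change in the lab calcifuge, as did 32 of the 87 members, and these changes are the ones that chose the genes. The signal of AT3G04210, a TIR-NBS gene of the intracellular immune receptor type, at 1 and 12.5 mM was 151 against 48.9 in the lab calcicole, 431 against 259 in the lab calcifuge, 81.9 against 20.5 in the high-pH wild line, and 173 against 62.6 in the low-pH wild line. The lab calcifuge at 12.5 mM was above the other 3 lines at 1 mM, so the groups overlapped. AT5G18470, a mannose-binding lectin-type gene, was at 498 and 247, 169 and 109, 58.9 and 24.2, and 87.4 and 30.8, with the lab calcicole high at both doses.

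The 3 others had their strongest change in the high-pH wild line. AT1G13470, a gene of a plant family of unknown function (DUF1262), was at 336 and 39.8 there (-2.66). It was at 789.5 against 288 in the lab calcicole, 215 against 147 in the lab calcifuge (-0.50), and 274 against 145 in the low-pH wild line. AT3G04640, which encodes a glycine-rich protein, was at 226 against 25.4 in the high-pH wild line and at 167 against 111 in the lab calcifuge. AT5G52760, a gene with a heavy-metal-associated domain, was at 145 and 20.2 and at 183 and 107 in those lines. In AT5G52760 the lab calcicole, at 367 and 89.3 (-1.86), was close to the high-pH wild line (-2.15). Whether the lines differ in these changes was not tested, since the same differences chose the genes.

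Genes of transport and membrane lipids were led by the probe set of PUP18 and AT1G57980, neighbouring genes of the purine permease family that carries purines and related compounds into cells. Its change was close to the same in every line: -1.53, -1.48, -1.49 and -1.85 (lab calcicole, lab calcifuge, wild high and wild low soil pH). Signals were 80.6 to 205 at 1 mM and 18.5 to 54.3 at 12.5 mM, with no overlap. This is the member with the strongest weakest line (-1.48), and the signal of both genes cannot be separated.

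AT5G55450 encodes a lipid-transfer protein, of a family that binds lipids outside the cell. Its signal at 1 and 12.5 mM was 2324 against 773 in the lab calcicole, 970.1 against 534 in the lab calcifuge, 1478 against 473 in the high-pH wild line, and 1071 against 423 in the low-pH wild line (-1.33 ± 0.35). All 4 arrays at 12.5 mM lay below those at 1 mM. AT3G60540, for a Sec61-beta-type subunit of the protein-import channel of the endoplasmic reticulum, differed by between -1.50 and -0.68, AT2G39210, a major facilitator family transporter gene, by between -1.43 and -0.67, and AT3G13062, with a lipid-binding START-type domain, by between -0.95 and -0.52.

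Enzyme genes were 4 of the named members. AT2G44500, an O-fucosyltransferase family gene, was at 101 against 48.3 in the lab calcicole, 169 against 79.0 in the lab calcifuge, 83.0 against 39.4 in the high-pH wild line, and 150.3 against 51.4 in the low-pH wild line (-0.99 ± 0.22). AT3G09020, of an alpha-1,4-glycosyltransferase family, had its strongest change in the low-pH wild line, from 54.4 to 2.95, the latter under 16 signal units. AT3G60420, a phosphoglycerate mutase-like gene, was lower by between 0.51 and 1.24 on the log2 scale. A further probe set of AT3G60420 had a mean signal of only 3.23 and was not tested. AT1G55450, a methyltransferase gene, differed by -1.05 ± 0.32, with overlap between the doses.

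Genes known from starvation and low oxygen were 3 of the named members. ATG8E encodes a ubiquitin-like protein that is joined to lipid on the growing autophagosome. It was at 333 against 109 in the lab calcicole, 398 against 182 in the lab calcifuge, 198 against 106 in the high-pH wild line, and 309 against 183 in the low-pH wild line (-1.02 ± 0.34). The changes were strongest in the lab calcicole (-1.48) and weakest in the low-pH wild line (-0.71).

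The other 2 of that set had their strongest change in the lab calcifuge. AT3G15450, a gene of the aluminium-induced protein type that rises in darkness and under low sugar, was at 404 and 199.6, 1566 and 209, 288 and 171, and 664 and 235.5 in the same order of lines. The lab calcifuge was high at 1 mM and near the other lines at 12.5 mM, which gave it a change of -2.81 against -0.70 to -1.43 elsewhere. AT3G10020, a gene of the core response to low oxygen, was at 475 against 99.6 in the lab calcifuge (-2.09) and differed by -0.55 to -0.98 in the other lines.

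**Figure D3:**
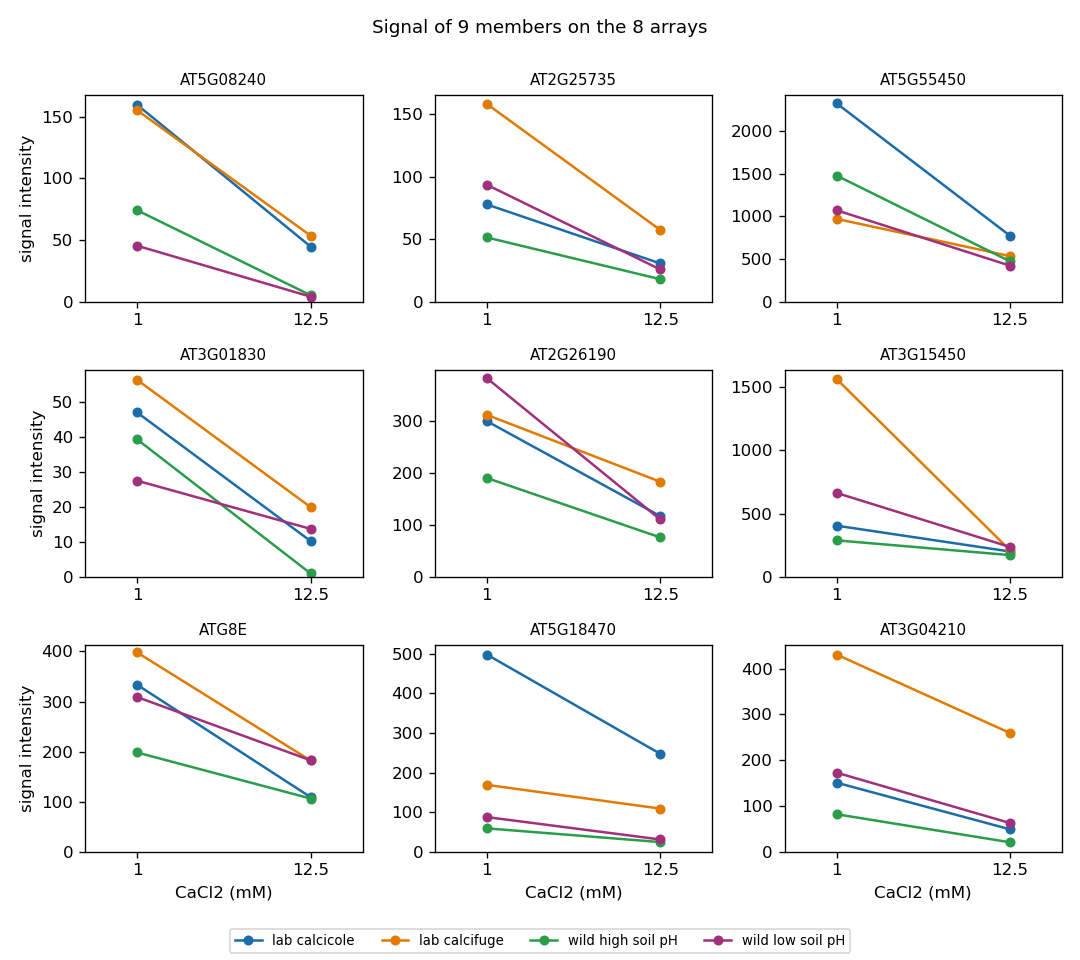
Signal intensity of 9 members at 1 and 12.5 mM CaCl2, on linear axes that start at 0, with 1 line for each plant line and 1 array per point. In AT5G55450, AT3G01830, AT2G26190, AT3G15450 and ATG8E the 12.5 mM points all lie below the 1 mM points, and in AT5G08240, AT2G25735, AT5G18470 and AT3G04210 the points of the doses overlap.

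The remaining 13 named members have no role that is given here, and they held the strongest mean change of the members naming 1 gene. AT5G08240 was at 159.7 against 44.8 in the lab calcicole, 155 against 53.6 in the lab calcifuge, 74.2 against 5.29 in the high-pH wild line, and 45.4 against 4.12 in the low-pH wild line (-1.63 ± 0.33). Both wild lines were under 16 signal units at 12.5 mM. AT2G25735 was at 77.9 and 30.7, 158 and 57.5, 51.5 and 18.0, and 93.7 and 25.9, with an even change (-1.16 ± 0.19). AT3G15770 was also even (-0.98 ± 0.20), as was AT1G32460 (-0.73 ± 0.12).

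Others of the 13 depended more on the line. AT1G25400 was at 84.0 against 4.99 in the lab calcifuge, a change of -2.25, and differed by -0.74 to -1.17 in the other lines. ZCF37 was at 121 against 10.4 in the high-pH wild line (-2.38) and differed by -0.79 in the lab calcifuge. The signals of 4.99 and 10.4 are both under 16 signal units. AT3G06070 and AT1G19380 had mean changes of -1.33 and -1.24, AT2G18690 of -1.21 and AT5G10695 of -0.93. AT3G18250, AT1G23840 and AT5G45480 had the smallest, at -0.83, -0.82 and -0.72, besides AT1G32460.

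At the threshold, the named members just inside were AT1G13470, AT3G60420 and AT3G13062, with weakest lines at -0.50, -0.51 and -0.52. Just outside were AT5G48540, AT1G76600 and AT4G39830, whose weakest lines were at -0.50, -0.49 and -0.49. Of these 6, AT1G13470 had the largest mean change (-1.35), and the 3 outside had mean changes of -0.74, -0.89 and -0.66.

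The 51 unnamed members reached lower mean changes than those naming 1 gene, at -1.91 against -1.63. The probe set 245038_at had the second-strongest weakest line (-1.38), with signals of 919 against 209.7 in the lab calcicole, 539.5 against 116 in the lab calcifuge, 229 against 42.4 in the high-pH wild line, and 183 against 60.8 in the low-pH wild line. The largest change of any member in any line was -3.87, for another unnamed probe set in the high-pH wild line, from 925 to 48.5. That probe set differed by -1.10 to -1.46 in the other lines.

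Of the gene lists set beside the members, the list of wound, touch and elicitor genes had 10 of 64 loci named on the array and 8 tested. AT3G01830 is its 1 member that met the rule for a drop, and 0 met the rule for a rise, where 0.617% and 0.283% of all tested probe sets did. In all 4 lines 5 of the 8 were lower and 0 higher. Of all tested probe sets 10.4% were lower and 10.2% higher in all 4 lines. The median of the mean changes was -0.77 over the 8, against 0.01 over all tested probe sets. These values are a description only: AT3G01830, chosen for its drop, is among the 5, and the list was chosen with earlier results of these data known. The signal of STZ, a zinc finger gene, at 1 and 12.5 mM was 689.9 against 136 in the lab calcicole, 227 against 253 in the lab calcifuge, 371 against 29.1 in the high-pH wild line, and 349 against 64.7 in the low-pH wild line. The lab calcifuge thus went the other way. PUB24, a ubiquitin ligase gene of the elicitor response, differed by -0.66, -0.41, -0.79 and -0.57, and missed the rule in the lab calcifuge only. Few genes of the other lists are named here: of 29 salicylic acid genes only SAG101 is named (mean change -0.39 ± 0.36), of 19 circadian clock genes only GI (0.10 ± 0.29), and of 35 calcium and chloride transport genes and 10 phosphate starvation genes 0 are named here.

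Few tissue markers are named on the array, namely 1 of 5 for leaf, 2 of 8 for root, 0 of 5 for flower and 0 of 2 for seed. RCA, the leaf marker for Rubisco activase, was at 3463 to 6387 and differed by -0.48, -0.47, -0.01 and -0.38 in the order of lines used above. Of the root markers, PYK10, a root beta-glucosidase gene, differed by 1.75, 1.69, 0.40 and 0.50, and EXPA7, a root hair expansin gene, by 0.00, -0.82, -0.01 and -0.24. The part of tissue make-up in the members' changes was not tested.

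Members were chosen for their dose change, so line differences in the level averaged over both doses were tested, but level was not free of the choice. The signal minimum acts on level, and a dim member could meet it through its brighter lines alone. Because 16 was added before the log, each line also needed enough signal at 1 mM to reach -0.5. How far this shifted the members' line differences was not tested. The limma fit had line and dose as terms, and the Benjamini-Hochberg adjustment ran over all 15555 tested probe sets. A probe set was called at an adjusted p under 0.05. The residual spread measures how far the dose change varied by line, which is not independent of the rule: the SD of the change over lines had a median of 0.36 in the members and 0.29 over all tested probe sets. Each line stands for itself, and the comparisons concern these lines only.

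Most members were higher in the lab lines than in the wild lines. Of the 87, 74 were higher in the lab lines and 13 lower, with a median difference of 0.58, while over all tested probe sets the median was 0.01 and 51.6% were higher. The difference passed the threshold for 43 members, 39 higher and 4 lower, where 15.7% of all tested probe sets passed (8.25% higher and 7.41% lower). At each dose both lab arrays were above both wild arrays for 33 members, where this was so for 11.9% of tested probe sets, and below for 4, where it was so for 10.8%. Over both doses together all 4 lab arrays were above all 4 wild arrays for 9 members, where 7.9% of tested probe sets were, and below for 1, where 7.64% were. The count of 43 was 27 without the lab calcicole array at 1 mM, 28 without that at 12.5 mM, 28 and 21 without the low-pH wild array at 1 and 12.5 mM, and 22 without the high-pH wild array at 12.5 mM. The counts over all tested probe sets were lower there too, at 659 to 1324 against 2436.

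Among named members AT5G18470, the lectin-type gene, had the largest lab minus wild difference (1.94 ± 0.14, SE; adjusted p 0.00104 in limma). Its 4 lab arrays, at 109 to 498, were all above its 4 wild arrays, at 24.2 to 87.4. AT3G18250 was higher by 1.58 ± 0.18 (adjusted p 0.00311) and AT5G08240 by 1.44 ± 0.16 (adjusted p 0.00282). The kinase gene AT5G25440 was higher in the lab lines by 1.32 ± 0.16 and the immune receptor-type gene AT3G04210 by 1.16 ± 0.16. For AT3G04210 this rests on the lab calcifuge, with a mean log2 level of 8.46. The lab calcicole, at 6.70, was below the low-pH wild line, at 6.93.

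Smaller differences in the same direction passed for AT5G10695 (1.08), ZCF37 (1.01), AT2G18690 (0.99), AT5G52760 (0.96), AT3G09020 (0.81), AT3G60540 (0.76), AT1G55450 (0.74), AT1G32460 (0.72), AT2G39210 (0.70) and AT2G25735 (0.60). That makes 15 of the 33 members naming 1 gene, all higher in the mean of the lab lines, though not always in each of them. The mean log2 level of AT2G25735 was 6.05 in the lab calcicole and 6.08 in the low-pH wild line. That of AT1G55450 was 8.30 and 8.40 in the lab lines, 8.22 in the low-pH wild line and 7.00 in the high-pH wild line. With each of the 8 arrays left out in turn, 6 of the 15 passed every time, namely AT5G18470, AT3G18250, AT5G08240, AT5G25440, AT3G04210 and AT5G10695. AT1G32460 and AT2G18690 did not pass without the low-pH wild array at 12.5 mM, and the other 7 did not pass in 6 or 7 of the 8 cases. Of the 3 starvation and low-oxygen genes 0 passed, with ATG8E at 0.27 ± 0.16 (adjusted p 0.285), AT3G15450 at 0.43 ± 0.31 (adjusted p 0.377) and AT3G10020 at 0.43 ± 0.25 (adjusted p 0.262). Of the 4 members lower in the lab lines past the threshold none is named here.

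**Figure D4:**
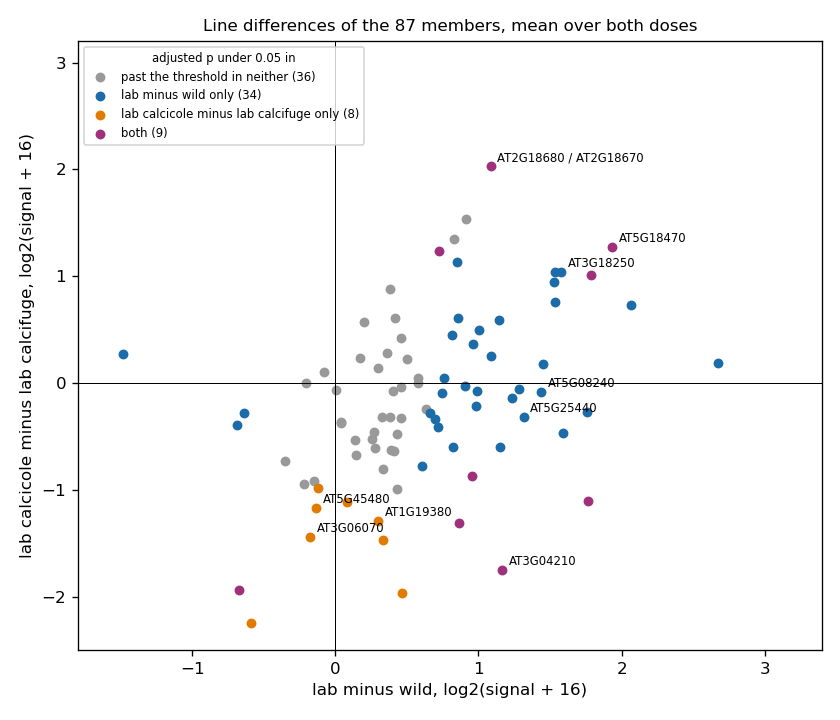
Each point is 1 of the 87 members, with the lab minus wild difference on the horizontal axis and the lab calcicole minus lab calcifuge difference on the vertical axis, both as means over the doses in log2(signal + 16). Colours mark an adjusted p under 0.05 in neither comparison (36 members), in lab minus wild only (34), in the lab pair only (8) or in both (9); 74 points lie to the right of 0, and 54 lie below 0 on the vertical axis.

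Between the lab lines 17 members passed, 4 higher and 13 lower in the calcicole, where 5.08% of tested probe sets passed (1.77% higher and 3.31% lower). AT3G04210 was lower in the calcicole by -1.75 ± 0.22 (adjusted p 0.00717), AT3G06070 by -1.44 ± 0.25 (adjusted p 0.0217), AT1G19380 by -1.30 ± 0.26 (adjusted p 0.0355) and AT5G45480 by -1.17 ± 0.19 (adjusted p 0.0183). Only AT5G18470 was higher among members naming 1 gene (1.28 ± 0.20, adjusted p 0.0152). The count of 17 was 3 and 6 without the lab calcicole array at 1 or 12.5 mM and 10 without the lab calcifuge array at 1 mM. Without the lab calcicole array at 12.5 mM 0 of these 5 named genes passed, and without that at 1 mM, or without the lab calcifuge array at 1 mM, only AT3G04210 did. Without the lab calcifuge array at 12.5 mM AT5G45480 and AT1G19380 did not pass, and AT1G19380 did not pass in 6 of the 8 cases.

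The probe set assigned to AT2G18680 and AT2G18670 was also higher in the calcicole, at 328 and 174 against 69.1 and 30.1 in the calcifuge (2.03 ± 0.23, adjusted p 0.00492). AT2G18670, a RING-finger gene, overlaps AT2G18680 in the TAIR10.1 annotation and has a probe set of its own with a mean signal of 117, and that one differed between doses by -0.08, 0.08, 0.57 and -0.22. The 2 probe sets therefore disagree over the dose. AT2G18690, which lies close by with 1 gene between, is a member with a change of -0.60 to -1.64.

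Between the wild lines 2 members passed, where 0.36% of tested probe sets did, and both were lower at high soil pH (0.212% of tested probe sets) and are unnamed here. One is 259272_at, with signals of 26.6 against 4.27 in the high-pH wild line and 181 against 46.2 in the low-pH wild line (-1.91 ± 0.26, adjusted p 0.0332). It was also the member with the largest lab minus wild difference (2.67 ± 0.18). None of the members naming 1 gene passed, and 26 of the 87 had an unadjusted p under 0.05 in limma, 29.9% against 8.92% of tested probe sets. Over the 87 members 74 were lower at high soil pH, with a median of -0.36 against 0.01 over all tested probe sets. AT5G25440 (-1.23 ± 0.23, adjusted p 0.0896) and AT1G55450 (-1.22 ± 0.22, adjusted p 0.0849) had the largest differences among members naming 1 gene with an adjusted p under 0.1, and neither passed. Without the low-pH wild array at either dose 0 members passed, without the high-pH wild array 1 or 0 did, and without either lab calcicole array 1 did.

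Whether the lab pair and the wild pair differ in their line difference was tested as well, and 4 members passed, where 1.3% of tested probe sets did. All 4 had the higher difference in the lab pair, a direction in which 0.392% of tested probe sets passed, with 0.906% in the other. AT5G18470 is the only one that names 1 gene, and the probe set of AT2G18680 and AT2G18670 is another (1.95 ± 0.33, adjusted p 0.0392). Leaving out 1 array gave counts of 0 to 2.

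Genes beside the members in the genome, with the members' probe sets left out, gave 31 tested probe sets that name 1 gene of their own. Among them is the own probe set of AT2G18670, a gene that also shares a member's probe set. Only a probe set left out by name could then have met the rule, and 0 did, so this count is no test. The median of their mean changes was -0.03, against 0.01 over all tested probe sets, and 7 (22.6%) were lower in all 4 lines, where 10.4% of all tested were. The largest drop among the 31 mean changes was that of AT5G52750, next to AT5G52760, at -1.09, with -1.12 for the lab calcicole, 0.18 for the lab calcifuge, -1.97 in the high-pH wild line and -1.44 in the low-pH wild line. Apart from PUP18 with AT1G57980 and AT2G18680 with AT2G18670, pairs that each share 1 probe set, no members with a gene name were direct neighbours.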

How the data were processed

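The authors deposited a signal intensity per probe set, made with MAS5 per the submitters' processing notes, whose version and settings are not given in the sources used here. The values are linear and were scaled before deposit: the mean without the lowest and highest 2% was 100.0 on each of the 8 arrays, and the median signal was 42.4 to 47.8. The number of arrays limits the precision. Here 64 control probe sets were left out, 16 was added, log2 was taken, and 15555 probe sets with a mean signal of 20 or more were tested. The platform table names 1 gene for 8500 of them, several for 317 and none for 6738, and TAIR10.1 was used for names and gene order only. Line differences were fitted with limma 3.58.1 in R 4.3.3 (line and dose as terms, 3 residual degrees of freedom, all 8 arrays). The fit was also run on simulated arrays, which held no dose effect and so do not mirror the members. Figures used matplotlib 3.10.9. Replicates within a line and dose are not among the arrays. The members, lists and role groups were chosen with earlier results of these data known. All members naming 1 gene are named, as are up to 4 unnamed probe sets. Promoter and protein sequences were not used here. Alternatives covered pseudocount, filter, scaling, thresholds, variance model, dose term and leaving out arrays or lines.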

Additional observations from a re-analysis of the deposited data

Results flagged for a closer look

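AT5G18470, the mannose-binding lectin-type gene, is listed because its line difference was not the same in the lab and the wild pair. Lab calcicole minus lab calcifuge was 1.28 and wild high minus wild low soil pH was -0.34, a difference of 1.62 ± 0.29 (SE, adjusted p 0.0431 in limma, 2 arrays per line). With 1 array left out the difference was 1.40 to 1.84, with limma's adjusted p between 0.0462 and 0.165, and it passed the threshold only without the lab calcifuge array at 12.5 mM.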

How the results depend on the processing

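Each line was hybridised once per dose, so its arrays formed a pair, which the line and dose terms of the fit took into account. No replicate number could serve as a block. The counts without the dose term are among those that follow. With the pseudocount at the 10th percentile of the signals (2.51), 154 probe sets met the rule and 143 were members, the lab pair differed for 463 probe sets, and 0 members passed the difference of line differences. With 32 added instead, 1 member passed in the wild pair. Without a filter on signal the lab pair gave 283 probe sets and 10 members, the wild pair 17 and 0, lab minus wild 1539 probe sets, and the difference of differences 29 and 0. A threshold of -0.4 gave 171 probe sets and 160 members, -0.6 gave 57 and 51, and -1 gave 8 and 6. At an adjusted p of 0.1 the counts were 1657 and 27 for the lab pair, 151 and 6 for the wild pair, 3859 probe sets for lab minus wild, and 450 and 8 for the difference of differences. Without the dose term they were 394 and 0, 31 and 0, 1554 and 11, and 107 and 0 in that order. That fit leaves the drop with dose, for which the members were chosen, in their residual spread. The causes of the other shifts were not tested. The rule was recomputed without 1 line at a time, and then has 3 lines to meet. Leaving out 1 array or line, a line only for the rule, gave 165 to 259 probe sets and 153 to 251 members there. For the line comparisons it gave 164 to 640 and 3 to 16 (lab pair), 12 to 69 and 0 to 2 (wild pair), 659 to 2291 and 21 to 42 (lab minus wild), and 34 to 162 and 0 to 2 (difference of differences). Of the named genes, only those that passed a line comparison in the main fit were followed, and their differences reversed in 0 cases. Differences that pass are the least prone to reverse, so this says nothing of the other named genes. In the settings that kept all 8 arrays these genes still passed in 157 cases and did not in 32. Scaling each array to the same median kept 74 of the 87 members, and quantile normalization kept 79. The mirror-image rule for a rise was also recomputed, as an alternative chosen after seeing the data.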
